A study of Sus scrofa with 4 samples.

Results

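The constitutive proteasome was described through the messenger RNA of 31 subunit genes in pig skeletal muscle. The members were chosen by their place in the particle, 14 subunits of the 20S core (PSMA1 to PSMA7 and PSMB1 to PSMB7) and 17 of the 19S regulatory particle (PSMC and PSMD genes). The choice was made with their FPKM difference between the breeds known from an earlier look at these libraries, so that difference is given here as a description and supports nothing. All 31 were found among the 29692 gene symbols of the table, each as a single row, and all 31 were among the 10075 genes tested, which had 1 FPKM or more in 2 or more libraries.

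The samples were muscle biopsies of Hampshire pigs (2 libraries) and of Mali pigs (2 libraries), breeds that the study set against each other for their difference in muscularity. No treatment, age, sex or muscle was named for either breed, and nothing in the labels ties the 2 libraries of a breed to separate animals. The p-values therefore reflect the spread among these libraries, which may be technical. The limma p-values and the standard errors given below draw each gene's spread toward that of other genes. In the breed fit each gene had 2 residual degrees of freedom, against 5.24 of the prior. A standard error is therefore not the gene's own library spread alone. The titles of replicates 2 end in 1 and those of replicates 1 do not, and what this suffix stands for is not in the labels. FPKM, fragments scaled to gene length and to library size, compares genes per length but does not show how many reads lie behind a value, so the depth is unknown.

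The proteasome degrades proteins that carry a chain of ubiquitin. Its 20S core is a barrel of 2 outer alpha rings, which form the gate, and 2 inner beta rings, whose subunits PSMB5, PSMB6 and PSMB7 cut the substrate. The 19S particle caps the barrel. Its base holds a ring of ATPases that unfold the substrate and push it inward, and its lid removes the ubiquitin. In skeletal muscle the proteasome takes part in the normal turnover of contractile proteins, and much of the protein lost in wasting passes through it.

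The libraries differed in composition. Total FPKM was 988614 and 756253 in the Hampshire libraries, against 516463 and 894809 in the Mali libraries (replicate 1 first), and mitochondrially encoded genes made up 42.5% and 21.3% of it in Hampshire and 19.4% and 17.1% in Mali. Of 12 markers of skeletal muscle, 11 were matched by symbol, none was at 0, and they summed to between 84799 and 88369 FPKM in Hampshire and between 45267 and 77235 FPKM in Mali. Markers of other cells were present in every library. The 5 fibroblast markers summed to 412 and 1199 FPKM in Hampshire and to 92.8 and 304 FPKM in Mali, the 5 macrophage markers to 10.96 and 20.3 FPKM in Hampshire and to 6.64 and 6.11 FPKM in Mali, and the 6 leukocyte markers to 5.88 and 7.92 FPKM in Hampshire and to 3.73 and 2.49 FPKM in Mali. In each of these 3 lists 3 markers were higher in both Hampshire libraries than in both Mali libraries, and none was lower in both. The skeletal muscle list gave the same counts. Of all genes tested, 13.0% were separated as higher in Hampshire and 23.6% as lower. No marker of these lists was at 0 in every library. The 3 matched red blood cell markers summed to 2570 and 3775 FPKM in Hampshire and to 89.9 and 5514 FPKM in Mali. The 4 adipocyte markers summed to 72.7 and 328 FPKM in Hampshire and to 111 and 81.1 FPKM in Mali. The part of these cell types in the results that follow was not tested. In bulk tissue fewer cells of a type and less RNA per cell cannot be told apart.

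The proteasome as a whole was represented more weakly in Hampshire muscle. The 31 subunits summed to 2076 and 1469 FPKM in Hampshire and to 3896 and 3303 FPKM in Mali. Set against the FPKM sum without mitochondrial genes, this was 0.365% and 0.247% in Hampshire and 0.936% and 0.445% in Mali. The median subunit stood at 61.5 and 43.3 FPKM in Hampshire, against 111 and 99.1 FPKM in Mali. Both Hampshire libraries lay below both Mali libraries in each of these 3 summaries.

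All 31 subunits had a lower mean in Hampshire, from 30.3% of the Mali mean for PSMD2 to 72.5% for PSMA2, with a median of 47.7%. The median difference in log2(FPKM + 1), Hampshire minus Mali, was -1.05, and the range was -1.68 to -0.54. Over all genes tested the median was -0.12, and 5% of genes lay below -0.87. For 28 of the 31 subunits both Hampshire libraries were below both Mali libraries, and 23.6% of all genes tested were separated in that direction. For 3 subunits, all of the alpha ring, the breeds overlapped. No subunit was higher in both Hampshire libraries, as 13.0% of all genes were.

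None of these differences passed the test across all genes. For the breed, limma gave 0 of 10075 genes, or 0%, an adjusted p (Benjamini-Hochberg) under 0.05, and the lowest value of a subunit was 0.525, that of PSMC1. An unadjusted p under 0.05 was found for 10 of the 31 subunits and for 7.09% of all genes. Rescaling to a common FPKM sum per library placed the median of all genes at -0.40. After it, 2 of the 31 subunits passed, against 0.675% of all genes. With mitochondrial genes left out of that sum, 63 of the 10075 genes passed and 0 of the subunits did. In the table that the authors deposited, 0 of the 31 subunits had a q-value under 0.05, against 0.215% of its named rows, and the lowest q-value of a subunit was 0.229, that of PSMB3.

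**Figure D1:**
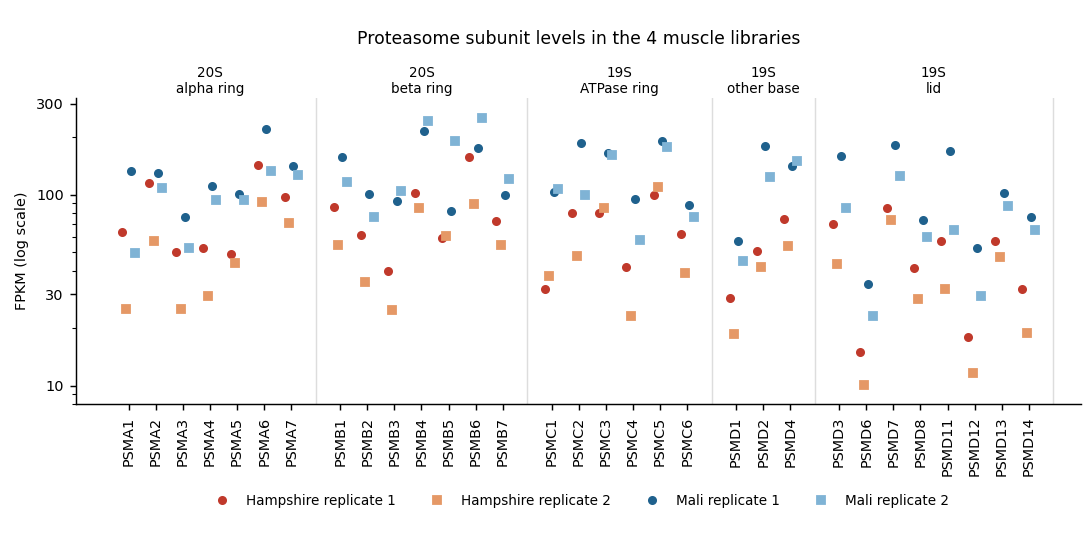
FPKM (log scale) of the 31 subunits in each of the 4 libraries, ordered by the part of the particle; circles are replicates 1 and squares replicates 2. Hampshire points lie below both Mali points for 28 subunits, and PSMA1, PSMA2 and PSMA6 overlap.

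The alpha ring, which forms the gate of the core and carries no active site, had a median log2 difference of -0.81. PSMA4 was furthest apart, with 52.5 and 29.4 FPKM in Hampshire, against 111 and 93.97 FPKM in Mali, a log2 difference of -1.35 ± 0.50 (standard error). PSMA5, an alpha subunit encoded on chromosome 4 (110695429 to 110717308, Sscrofa11.1), was at 48.8 and 43.9 FPKM in Hampshire, against 101 and 93.8 FPKM in Mali. Its libraries of a breed lay close together, so its log2 difference of -1.05 was nearly the same within replicates 1 (-1.03) and within replicates 2 (-1.08). PSMA3 and PSMA7, the other alpha subunits without overlap, had log2 differences of -0.81 and -0.68.

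The 3 overlapping subunits all had a Hampshire replicate 1 above Mali replicate 2. PSMA1 was at 63.5 and 25.3 FPKM in Hampshire, against 133 and 49.5 FPKM in Mali. On the log2 scale its replicate 2 minus replicate 1 was -1.30 in Hampshire and -1.41 in Mali, and both exceeded its breed difference, -1.0001, in size. PSMA2 was at 115 and 57.1 FPKM in Hampshire, against 129 and 109 FPKM in Mali, and it had the smallest difference of the 31 subunits, -0.54 with a standard error of 0.54. PSMA6 was at 143 and 91.7 FPKM in Hampshire, against 221 and 132 FPKM in Mali. In all 3, each replicate 2 lay below both replicates 1, whatever the breed.

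In the beta ring all 7 subunits were lower in both Hampshire libraries, where 23.6% of all genes tested were. Their median log2 difference was -0.98. PSMB3, a beta subunit without an active site of its own (chromosome 12, 23347060 to 23357616), had 39.7 and 24.7 FPKM in Hampshire, against 93.2 and 104 FPKM in Mali. Its log2 difference of -1.62 ± 0.48 (standard error) was the largest in the core. PSMB4, another non-catalytic beta subunit (chromosome 4, 97835544 to 97837909), was at 102 and 85.1 FPKM in Hampshire, against 216 and 244 FPKM in Mali. PSMB1 and PSMB2, also non-catalytic, had log2 differences of -0.98 and -0.91.

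The 3 catalytic subunits were lower in both Hampshire libraries, where 23.6% of all genes tested were. Their differences varied with the library. PSMB5, which carries the chymotrypsin-like activity (chromosome 7, 76014576 to 76021922), was at 59.0 and 61.0 FPKM in Hampshire, against 82.3 and 191 FPKM in Mali. PSMB6, which carries the caspase-like activity (chromosome 12, 52096009 to 52098164), was at 158 and 89.0 FPKM in Hampshire, against 175 and 251 FPKM in Mali. PSMB7, which carries the trypsin-like activity (chromosome 1, 265172257 to 265235389), was at 72.9 and 54.3 FPKM in Hampshire, against 99.5 and 121 FPKM in Mali. For each of the 3, Mali replicate 2 was the highest library. The log2 differences within replicates 1 were -0.47 for PSMB5, -0.15 for PSMB6 and -0.44 for PSMB7, and within replicates 2 they were -1.63, -1.48 and -1.14. Over all libraries they were -1.05, -0.81 and -0.79, with standard errors of 0.56, 0.55 and 0.48. Leaving out a library moved PSMB5 most for Mali, to -1.65 without replicate 1 and -0.45 without replicate 2, and moved PSMB6 most for Hampshire, to -1.23 without replicate 1 and -0.40 without replicate 2.

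The ATPase ring of the 19S base docks on the alpha ring and feeds substrate into it. All 6 of its subunits were lower in both Hampshire libraries, where 23.6% of all genes tested were. The median log2 difference of the ring was -1.05. PSMC1 (chromosome 7, 112027904 to 112041360) was at 32.0 and 37.7 FPKM in Hampshire, against 104 and 108 FPKM in Mali. Its log2 difference was -1.58 ± 0.45 (moderated standard error). Replicate 2 minus replicate 1 was much smaller, 0.23 in Hampshire and 0.05 in Mali. PSMC4 was at 41.7 and 23.0 FPKM in Hampshire, against 95.4 and 57.6 FPKM in Mali. Its log2 difference was -1.23 between the breeds, and replicate 2 minus replicate 1 was -0.83 in Hampshire and -0.72 in Mali. PSMC6 had the smallest difference of the ring, -0.73, with 61.9 and 39.0 FPKM in Hampshire, against 88.8 and 76.6 FPKM in Mali. PSMC3 and PSMC5 were steady within each breed, with means of 82.6 ± 3.20 and 105 ± 6.46 FPKM in Hampshire and 163 ± 2.38 and 185 ± 8.96 FPKM in Mali (SD, n = 2 each). PSMC2 had a log2 difference of -1.13.

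The other base subunits had a median log2 difference of -1.19 over 3 genes, with -0.98 within replicates 1 and -1.46 within replicates 2. PSMD2, a large scaffold subunit at which ubiquitin shuttle proteins and the deubiquitinase USP14 bind (chromosome 13, 122187500 to 122199397), was at 50.4 and 41.6 FPKM in Hampshire, against 181 and 123 FPKM in Mali. This was the largest difference of all 31 subunits, -1.68 on the log2 scale with a standard error of 0.49. PSMD4, a ubiquitin receptor, was at 75.0 and 54.0 FPKM in Hampshire, against 142 and 150 FPKM in Mali, a log2 difference of -1.19. PSMD1, the second large scaffold, was at 28.6 and 18.7 FPKM in Hampshire, against 57.4 and 44.7 FPKM in Mali, a log2 difference of -1.10. All 3 were lower in both Hampshire libraries, where 23.6% of all genes tested were.

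The lid removes ubiquitin before the substrate enters the core. All 8 of its subunits were lower in both Hampshire libraries, where 23.6% of all genes tested were, and their median log2 difference was -1.10. PSMD14, the metalloprotease that cuts off the ubiquitin chain (chromosome 15, 68107379 to 68208884), was at 32.2 and 18.9 FPKM in Hampshire, against 76.2 and 65.4 FPKM in Mali. Its log2 difference of -1.48 ± 0.48 (standard error) was the largest of the lid. PSMD12, a structural lid subunit, was at 17.9 and 11.6 FPKM in Hampshire, against 52.8 and 29.3 FPKM in Mali. PSMD13, another structural subunit, had the smallest difference of the lid, -0.85, with 57.0 and 47.3 FPKM in Hampshire, against 101 and 87.6 FPKM in Mali. PSMD7, the partner of PSMD14 in the lid, had a difference of -0.93, and PSMD3, PSMD6, PSMD8 and PSMD11 had differences of -1.07, -1.12, -0.94 and -1.27.

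**Figure D2:**
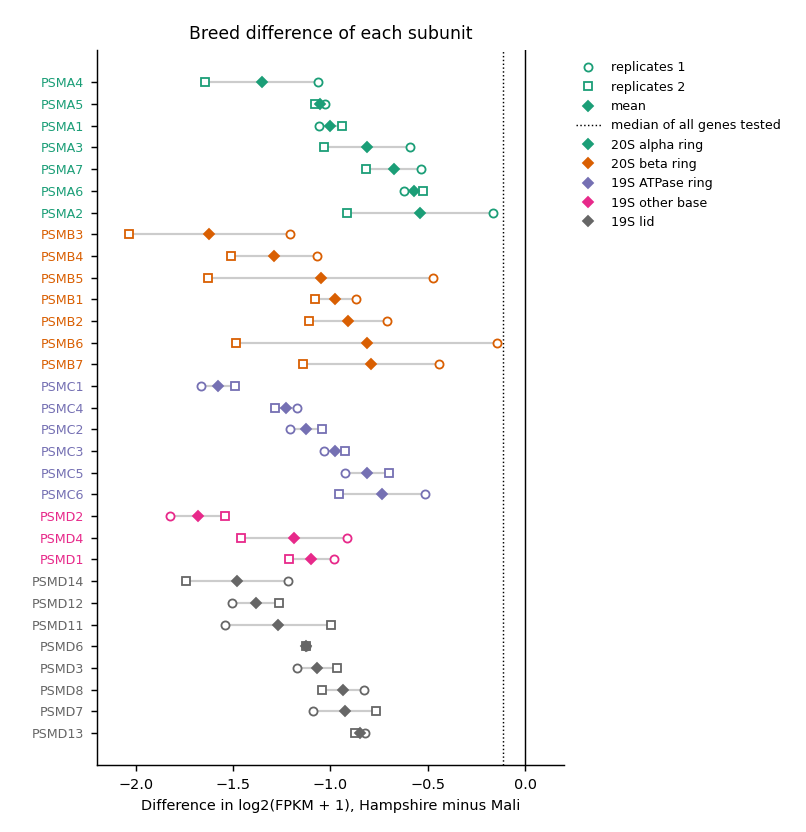
Difference in log2(FPKM + 1), Hampshire minus Mali, of each of the 31 subunits: diamonds are the mean difference, open circles the difference between the replicates 1 and open squares that between the replicates 2, and the dotted line is the median of all genes tested (-0.12). All points lie below 0, and the gap between circle and square is widest for PSMB6 and PSMB5.

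The core and the regulatory particle were compared for how far apart the breeds lay. The median log2 difference was -0.94 over the 14 core subunits and -1.12 over the 17 regulatory subunits. Taken per library, the mean log2 level of the regulatory subunits minus that of the core subunits was -0.63 and -0.44 in Hampshire and -0.20 and -0.51 in Mali. The breed difference of this quantity was -0.18, and the libraries overlapped between the breeds. It was -0.03 without Mali replicate 1, and the core median was -0.55 without Hampshire replicate 2. The ratio of summed FPKM, regulatory over core, was 0.805 and 0.964 in Hampshire and 1.12 and 0.874 in Mali, again with overlap. With 2 libraries against 2, no exact permutation test can give a two-sided p below 0.333.

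The balance within each particle also varied by library rather than by breed. The beta to alpha ratio of summed FPKM was 1.02 and 1.17 in Hampshire and 1.01 and 1.68 in Mali. The lid to base ratio was 0.684 and 0.582 in Hampshire and 0.701 and 0.542 in Mali, so replicates 1 were higher than replicates 2 in both breeds. The mean FPKM of the 3 catalytic subunits over that of the 4 other beta subunits was 1.34 and 1.37 in Hampshire and 0.838 and 1.38 in Mali. Mali replicate 1 was the single library in which catalytic subunits averaged less than the other beta subunits.

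**Figure D3:**
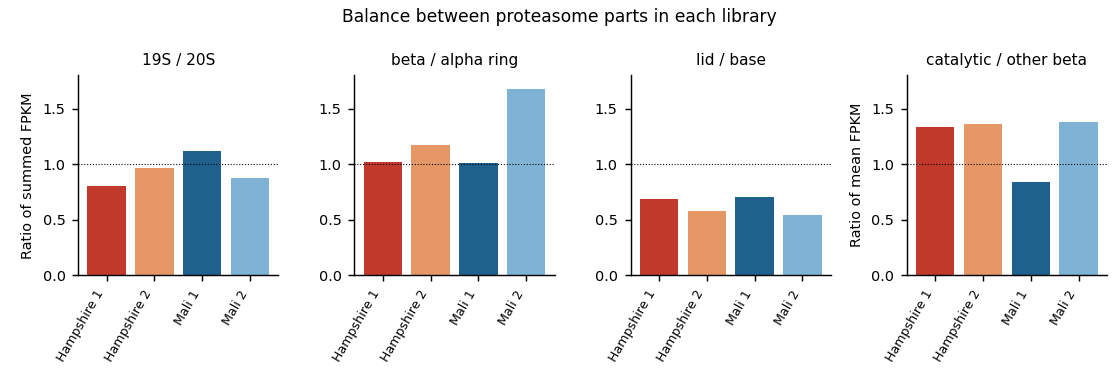
Ratios of FPKM between parts of the proteasome in the 4 libraries, shown as bars from 0: regulatory over core, beta over alpha ring and lid over base (summed FPKM), and catalytic over other beta subunits (mean FPKM). Breeds overlap in all 4 panels; Mali replicate 2 has the highest beta to alpha ratio (1.68) and Mali replicate 1 the lowest catalytic ratio (0.838).

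Subunits that assemble in equal numbers differed widely in FPKM. Over the 4 libraries PSMB6 had the highest mean, 168 FPKM, followed by PSMB4 at 162, PSMA6 at 147 and PSMC5 at 145. These 4 exchanged places between libraries. PSMB6 led in Hampshire replicate 1 and Mali replicate 2, PSMC5 led in Hampshire replicate 2 and PSMA6 led in Mali replicate 1. At the low end the order was fixed, with PSMD6 lowest, PSMD12 next and PSMD1 after it in all 4 libraries. PSMD6, a lid subunit (chromosome 13, 45506334 to 45529481), was at 15.0 and 10.1 FPKM in Hampshire, against 33.9 and 23.2 FPKM in Mali. The highest subunit exceeded the lowest 10.6-fold and 10.8-fold in Hampshire and 6.52-fold and 10.8-fold in Mali. In the middle of the order, neighbours such as PSMA5 and PSMA4, with means of 71.8 and 71.7 FPKM over all libraries, did not differ beyond their spread.

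The rank order of the 31 subunits was most alike between Hampshire replicate 2 and Mali replicate 2, with a Spearman rho of 0.902, and between the Hampshire libraries, with 0.892. It was least alike between the Mali libraries, with 0.678. PSMB5 illustrates the change, ranking 25th of 31 in Mali replicate 1 and 3rd in Mali replicate 2; in Hampshire replicates 1 and 2 it ranked 17th and 8th. These correlations run across genes of a single complex, which are not independent, and describe these libraries only.

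A contrast that played no part in the choice of members sets the libraries whose titles end in 1 (replicates 2) against those whose titles do not (replicates 1), across both breeds. In limma, 12 of the 10075 genes passed for this contrast, or 0.119%, and 0 of the 31 subunits did. An unadjusted p under 0.05 was found for 7.66% of all genes and for 1 subunit, PSMA1, whose adjusted p was 0.649. The median log2 difference of the subunits was -0.43, and that of all genes was 0.01. The median of the subunits was 0.11 without Hampshire replicate 2 and 0.02 without Mali replicate 1. With a library left out the contrast is not balanced between the breeds, so these 2 values also hold part of the breed difference. They cannot show whether the direction rests on single libraries. Within each breed the median was negative, as given below. Both replicates 2 lay below both replicates 1 for 3 subunits, PSMA1, PSMA2 and PSMA6, where 18.3% of all genes were so separated.

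Within Hampshire, 27 subunits were lower in replicate 2 than in replicate 1, by a median of -0.59 on the log2 scale, where the median of all genes was -0.06. PSMB5, PSMC1, PSMC3 and PSMC5 were higher, by at most 0.23. Within Mali, 24 subunits were lower in replicate 2, with a median of -0.25 over the 31 where all genes had a median of 0.06, and 7 were higher. Of these 7, 5 were beta subunits, PSMB3 to PSMB7. PSMB5 differed most, by 1.201, while the alpha subunit PSMA1 differed by -1.41 and the lid subunit PSMD11 by -1.37 between the same 2 libraries. PSMD11, a lid subunit that touches the core particle too, had 57.5 and 32.1 FPKM in Hampshire, against 170 and 65.0 FPKM in Mali. The breed difference of the beta ring accordingly had a median of -0.71 within replicates 1 and -1.48 within replicates 2, whereas that of the lid was -1.15 and -1.02.

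**Figure D4:**
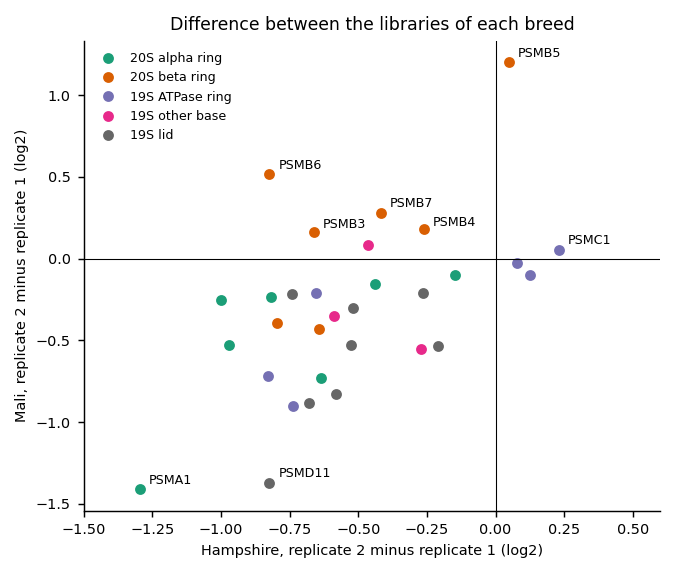
Each point is a subunit, placed by its log2(FPKM + 1) difference between replicate 2 and replicate 1 in Hampshire (horizontal) and in Mali (vertical), coloured by the part of the particle. Most points lie at the lower left; PSMB3 to PSMB7 lie above the horizontal line, with PSMB5 highest at 1.201.

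Some cells replace the 3 catalytic subunits by inducible forms, which make up the immunoproteasome. PSMB8, which takes the place of PSMB5, was at 12.04 and 8.08 FPKM in Hampshire, against 5.34 and 4.31 FPKM in Mali. PSMB9, which takes the place of PSMB6, was at 8.42 and 7.62 FPKM in Hampshire, against 3.07 and 3.13 FPKM in Mali. PSMB10, which takes the place of PSMB7, was at 11.8 and 5.70 FPKM in Hampshire, against 4.29 and 6.45 FPKM in Mali, with overlap. The ratio of each inducible subunit to its constitutive counterpart does not depend on how a library is scaled. PSMB8 amounted to 20.4% and 13.2% of PSMB5 in Hampshire and to 6.49% and 2.26% in Mali. PSMB9 amounted to 5.32% and 8.56% of PSMB6 in Hampshire and to 1.75% and 1.25% in Mali. PSMB10 amounted to 16.1% and 10.5% of PSMB7 in Hampshire and to 4.31% and 5.33% in Mali. All 3 ratios were higher in both Hampshire libraries than in both Mali libraries, and the constitutive form was the more abundant by FPKM in every library. The denominators were chosen with their lower Hampshire FPKM known, so the choice of members favours ratios that are higher in Hampshire, and PSMB10 itself overlapped between the breeds. The summed leukocyte and macrophage markers given above were also higher in both Hampshire libraries, with 3 markers of each list separated, and their part in these ratios was not tested. The thymus form PSMB11 was listed at 0 in all 4 libraries, and the testis form PSMA8 reached at most 0.039 FPKM.

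Of 62 other gene names of the pathway, in 9 lists, 60 were in the table and 58 were tested for the breed difference. In limma 0 of the 58 passed adjustment in either direction. An unadjusted p under 0.05 was found for 12 of the 58, against 7.09% of all genes. Both Hampshire libraries were below both Mali libraries for 31 of them and above for 3, and 47 of the 58 had a negative log2 difference, with a median of -0.51. Over all genes tested, 23.6% were separated as lower in Hampshire, 13.0% as higher, and 60.5% had a negative difference. The lists were drawn up with the earlier results of these data known, so they are not independent evidence of a direction.

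Of the parts attached to the same particle, the ubiquitin receptor ADRM1 was at 36.6 and 30.1 FPKM in Hampshire, against 87.6 and 70.1 FPKM in Mali. SEM1, a small lid protein, was at 159 and 224 FPKM in Hampshire, against 203 and 492 FPKM in Mali, with overlap. Its value sums 2 annotated loci, and its log2 difference was -0.74 both for the sum and for the higher locus alone. Of the 5 activators and inhibitors, 3 were lower in both Hampshire libraries, where 23.6% of all genes were, and 2 overlapped. PSME4, an activator that caps the core in place of the 19S particle, was at 19.3 and 15.4 FPKM in Hampshire, against 101 and 28.7 FPKM in Mali. PSMF1, an inhibitor, and PSME1, a part of the interferon-inducible cap, had log2 differences of -0.73 and -0.51. PSME2, the partner of PSME1, was at 29.3 and 31.04 FPKM in Hampshire, against 24.6 and 33.5 FPKM in Mali.

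Of 9 assembly chaperones, which build the particle and then leave it or are degraded, 4 were lower in both Hampshire libraries, where 23.6% of all genes were, and 5 overlapped. POMP, which helps to build the beta ring, was at 63.6 and 45.9 FPKM in Hampshire, against 129 and 66.3 FPKM in Mali. PSMG3 was at 8.31 and 7.23 FPKM in Hampshire, against 12.8 and 15.8 FPKM in Mali, and PSMD9 and PAAF1 had differences of -0.49 and -0.24. The chaperones had a median log2 difference of -0.47, and the 31 subunits one of -1.05. Whether these medians differ was not tested.

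Of 12 enzymes and adaptors that bind the proteasome, 10 were lower in both Hampshire libraries, where 23.6% of all genes were, and 2 overlapped. ZFAND2A, a stress-induced zinc finger protein that binds the particle, was at 1.30 and 1.27 FPKM in Hampshire, against 14.8 and 6.42 FPKM in Mali. The ubiquitin shuttle UBQLN1 was at 18.0 and 11.3 FPKM in Hampshire, against 48.9 and 24.3 FPKM in Mali. The deubiquitinase USP14 and the ubiquitin ligase UBE3C had log2 differences of -0.85 and -0.74. The unfoldase VCP and its cofactors extract ubiquitinated proteins from complexes and membranes. Of 7 such genes, 4 were lower in both Hampshire libraries, where 23.6% of all genes were, and 3 cofactors overlapped. VCP itself was at 71.9 and 60.6 FPKM in Hampshire, against 166 and 130 FPKM in Mali. The cofactors without overlap, NSFL1C, NPLOC4 and UFD1, had log2 differences of -1.42, -1.25 and -0.56.

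Ubiquitin is encoded by several genes. Of the 6 genes of ubiquitin and its activation, 5 were lower in both Hampshire libraries, where 23.6% of all genes were, and 1 overlapped. UBB, a gene of ubiquitin repeats, was at 561 and 536 FPKM in Hampshire, against 903 and 1037 FPKM in Mali. The activating enzymes UBA1 and UBA6 had log2 differences of -0.52 and -0.19. The sources used here do not give how reads shared between ubiquitin genes were assigned, which leaves these values uncertain. The muscle ubiquitin ligases FBXO32 and TRIM63 mark muscle proteins for the proteasome. Both were lower in both Hampshire libraries, where 23.6% of all genes were. TRIM63 was at 59.5 and 42.1 FPKM in Hampshire, against 134 and 84.2 FPKM in Mali, and FBXO32 had a log2 difference of -3.25.

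Among 12 measured regulators of proteasome genes, 9 overlapped between the breeds, 2 were lower in both Hampshire libraries and 1 was higher. Of all genes tested, 23.6% were lower and 13.0% higher, so these counts are no result about the list. NFE2L1, the transcription factor known for raising proteasome genes together when proteasome activity falls short, was at 53.0 and 29.4 FPKM in Hampshire, against 128 and 107 FPKM in Mali, a log2 difference of -1.54 ± 0.51 (standard error). Its relative NFE2L2 was at 11.4 and 7.52 FPKM in Hampshire, against 14.4 and 5.63 FPKM in Mali, with overlap. NGLY1, an enzyme that strips sugar chains from NFE2L1 protein during its activation, was higher in both Hampshire libraries, at 12.7 and 15.1 FPKM in Hampshire, against 9.06 and 8.19 FPKM in Mali. MAFF, a small partner of these factors, was at 2.18 and 1.63 FPKM in Hampshire, against 7.39 and 2.33 FPKM in Mali.

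**Figure D5:**
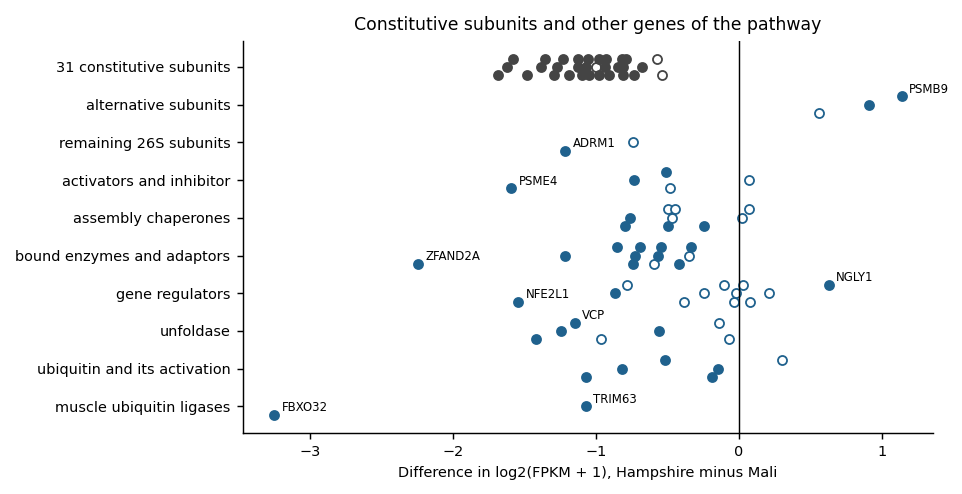
Difference in log2(FPKM + 1), Hampshire minus Mali, of the 31 constitutive subunits and of 58 other genes in 9 lists; filled points are genes whose libraries do not overlap between the breeds, open points those that overlap. The alternative subunits lie right of 0 and the 31 constitutive subunits left of it.

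The 31 genes are spread over 11 chromosomes, with 6 on chromosome 12 and 4 each on chromosomes 1, 6 and 7. PSMB4 and PSMD4 on chromosome 4 were the closest pair, 156 kb apart. All 31 positions in the table were those of the Sscrofa11.1 RefSeq annotation. Other annotated genes overlapped 7 members, and for 6 of these the table's locus differed from the member's own span. The sources used here do not say whether reads were counted by strand, so the values of these 7 are less certain. The overlapping gene reached 34.1% of the member's FPKM for PSMD6, where it was ATXN7, and 22.02% for PSMA7, where it was LSM14B. For PSMA3, PSMC1, PSMC5, PSMD1 and PSMD14 it reached at most 3.804%.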

How the data were processed

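RNA from muscle biopsies was isolated with Trizol and sequenced after TruSeq RNA library preparation, per the labels' protocols. The tools Cuffdiff, Picard, HISAT2 and Bowtie 0.12.2 are listed, without roles, per the submitters' processing notes. Build and strand setting are not among them; all 31 member positions equal those of Sscrofa11.1. The authors deposited 1 table of 30213 rows with FPKM per gene and library, and with a p-value and q-value of their own comparison, per the file headers. Whole reads behind the FPKM are unknown, so no count test was run.

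Breeds were grouped by the labels, and replicates were numbered in accession order. The 1 row with no gene symbol was dropped, 26 date-like symbols were replaced using gene IDs, and duplicated symbols were added up. In R 4.3.3, limma 3.58.1 was fitted to log2(FPKM + 1) of all genes with 1 FPKM or more in 2 or more libraries, two-sided, with Benjamini-Hochberg adjustment at 0.05. Low genes change less on this scale than in FPKM. The script was checked on simulated data.

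Members, lists and naming rule were chosen with earlier results of these data known. Named were the catalytic subunits, the 2 largest and the smallest breed differences of each part, overlapping members, the highest and lowest, and up to 4 separated genes of each list; PSMB10, PSME2, NFE2L2, SEM1 and further members were named outside the rule. ECPAS was matched as KIAA0368. DDI2 was not matched, and neither was TCF11, which is an alias of NFE2L1, a gene that was measured. Promoter and protein sequences were not analysed here. A gene that the naming rule took is not reported here. Alternatives were other pseudocounts, filters and scalings, each library left out, and a replicate block by title suffix. Added after seeing the data was a set of only the members whose listed locus equals the gene's own span. It held 25 members with a median log2 breed difference of -1.05. Of these, 22 were lower in both Hampshire libraries, where 23.6% of all genes were. Figures were drawn with matplotlib 3.10.9.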

Additional observations from a re-analysis of the deposited data

How the results depend on the processing

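All 31 subunits stayed below 0 for the breed under every alternative run. Their median breed difference was -1.05 and moved beyond the spread between libraries with a common sum per library, to -1.39 (20S core -1.29, 19S -1.46, all genes -0.40); the core median was -0.71 with quantile normalization. Leaving out 1 library gave medians of -1.31 to -0.81 for the members, -1.26 to -0.55 for the core and -1.41 to -0.86 for the 19S subunits, with the value nearest 0 without Hampshire replicate 2. The 19S minus 20S difference stayed negative, from -0.34 without Mali replicate 2 to -0.03 without Mali replicate 1. The members separated by breed numbered 21 with a common sum without mitochondrial genes (19.9% of all genes) or with quantile normalization (19.7%), 30 with a common sum (34.9%) and 28 to 31 with 1 library left out, where a breed of 1 library separates more easily (37.1% to 44.9% of all genes).

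The breed called 0 genes, but 1 with a mean of at least 5 FPKM, 68 with a common sum (2 of them members), 63 with that sum without mitochondrial genes, and 0 to 7 with 1 library left out. With the replicate block by title suffix it called 261 genes, and 57 with size factors added, in both cases 0 members. The suffix is not known to pair the libraries; across genes the differences of replicate 2 from replicate 1 correlated between the breeds with r = 0.275. The suffix contrast called 12 genes, but 0 with no filter or no mean-variance trend, 45 with a common sum, 84 without mitochondrial genes in it, 4 with size factors, 6 with quantile normalization, and 0 to 57 with 1 library left out. Its median over members, -0.43, turned to 0.11 without Hampshire replicate 2 and to 0.02 without Mali replicate 1. It was -1.08 without Mali replicate 2. With a library left out the suffix contrast is not balanced between the breeds, so these medians also hold part of the breed difference.

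NFE2L2 turned from 0.03 to -0.31 with a common sum, -0.055 without mitochondrial genes in it, and ranged from -0.58 without Mali replicate 2 to 0.63 without Mali replicate 1 (-0.24 without Hampshire replicate 1). PSME2 turned from 0.07 to -0.27 with a common sum and ranged from -0.15 without Mali replicate 1 to 0.28 without Mali replicate 2. ZFAND2A and FBXO32 passed with either common sum and with the block. The cause of these shifts was not tested. The motif alternative was not run.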
